A study of Homo sapiens with 7 samples.

Results

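TNF and a set of genes of the NF-kB pathway were followed in SUM159 cells in which SHP2 had been knocked down. The set was a list of 10 named genes. They are the ligand TNF, the inhibitors NFKBIA and TNFAIP3, the ubiquitin ligase BIRC3, the NF-kB subunits NFKB1, NFKB2, REL and RELB, and the targets TNFAIP2 and ICAM1. A gene was measured where a probe carried its symbol alone, which was the case for 9 of the 10 genes, out of 18417 genes in all. BIRC3 was not analysed here because no probe carried only its symbol. SUM159 is a mesenchymal triple-negative breast cancer line, and its RNA was hybridised to 7 Human Gene 1.0 ST arrays. A lentiviral hairpin under doxycycline control was expressed in the cells. It was SHP2 sh1 on 2 arrays and SHP2 sh2 on 3 arrays, both directed against SHP2, and Ctrl shRNA on the other 2 arrays. Cells of all 3 groups, controls included, were given doxycycline over 15 days of 2D culture, in medium with serum, insulin and hydrocortisone. The comparison asks which transcripts differ when SHP2, a tyrosine phosphatase encoded by PTPN11, is reduced. All arrays come from a single cell line, and the sources used here do not say whether the hairpin-bearing cells were clones or whether replicate arrays stem from independent cultures. The p-values therefore cover no more than the array-to-array spread within groups, part of which can be technical.

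NF-kB is a family of dimeric transcription factors held in the cytoplasm by inhibitor proteins. When TNF binds its receptor, the IKK kinase complex is activated and marks the inhibitor IkBa for degradation, and the freed dimers enter the nucleus and bind kappaB elements in DNA. Many of the genes that are then transcribed encode parts of the pathway itself, among them IkBa, the ubiquitin-editing enzyme A20 and the precursor subunits, so that the response limits and renews itself. In carcinoma cells the pathway is known for driving cytokine production, adhesion molecules and survival.

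The upstream sequences of the genes are given first, because kappaB elements next to the start site are one link between NF-kB and its own genes. The 250 bases before each start site were taken from RefSeq (GRCh38.p14), which gave 12 windows for the genes other than RELB. The kappaB consensus was searched in them on both strands, and matches that overlapped one another were counted separately. At least 1 match was found for 6 of these 9 genes (66.7%), compared with 6.28% of 27305 genes with windows of the same length. By window the count was 7 of 12 (58.3%), compared with 5.21% of 35116 windows. The list was chosen as genes of the NF-kB pathway and its feedback. A higher share than over all genes was thus built into the choice, and the contrast is no test. The genes with a match were TNFAIP3, NFKBIA, NFKB1, NFKB2, REL and BIRC3. A match describes letters and does not show binding, and the lack of a match in the windows of TNF, TNFAIP2 and ICAM1 says only that the consensus is not spelled there. The windows of the inhibitor genes TNFAIP3 (chr6:137867009-137867258, plus strand) and NFKBIA (chr14:35404750-35404999, minus strand) are shown with the matched bases in capitals. Those of TNF (chr6:31575315-31575564, plus strand) and TNFAIP2 (chr14:103123211-103123460, plus strand) follow. These 2 members lay above both controls on all 5 SHP2 hairpin arrays, as did 8.13% of all genes, and neither passed the test below.
TNFAIP3: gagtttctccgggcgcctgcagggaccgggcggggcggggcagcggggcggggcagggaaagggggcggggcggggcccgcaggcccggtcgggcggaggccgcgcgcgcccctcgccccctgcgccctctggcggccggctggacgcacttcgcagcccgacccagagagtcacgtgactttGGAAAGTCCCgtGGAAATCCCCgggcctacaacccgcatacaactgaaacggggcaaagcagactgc
NFKBIA: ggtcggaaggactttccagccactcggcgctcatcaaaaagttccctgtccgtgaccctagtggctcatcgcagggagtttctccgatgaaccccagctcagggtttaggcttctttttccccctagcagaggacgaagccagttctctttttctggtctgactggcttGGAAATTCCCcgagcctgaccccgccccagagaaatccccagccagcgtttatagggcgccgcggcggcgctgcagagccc
TNF: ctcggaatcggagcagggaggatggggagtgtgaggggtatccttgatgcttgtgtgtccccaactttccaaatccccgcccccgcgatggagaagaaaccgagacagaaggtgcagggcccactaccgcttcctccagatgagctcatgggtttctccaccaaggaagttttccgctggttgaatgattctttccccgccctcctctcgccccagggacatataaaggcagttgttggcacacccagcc
TNFAIP2: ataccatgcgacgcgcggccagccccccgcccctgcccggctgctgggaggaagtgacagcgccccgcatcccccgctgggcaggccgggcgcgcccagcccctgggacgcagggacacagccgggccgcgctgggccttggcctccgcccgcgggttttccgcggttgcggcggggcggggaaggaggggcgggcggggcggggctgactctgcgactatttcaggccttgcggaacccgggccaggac

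For the subunit genes, short stretches of 30 bases around a match are enough to show the element, again with the match in capitals and read along the strand of the gene. NFKB1 had 1 match, which ended 40 bases before the first of its start sites (chr4:102501300-102501329, plus strand). REL had 2 overlapping matches, which ended 38 and 37 bases before its start site, and the first is shown (chr2:60881517-60881546, plus strand). RefSeq places 3 start sites in NFKB2. No match preceded the first, 3 preceded the middle one, ending 98, 97 and 69 bases before it, and 2 preceded the last, ending 167 and 12 bases before it. Those at 98 bases (chr10:102394461-102394490, plus strand) and 12 bases (chr10:102395674-102395703, plus strand) are shown.
NFKB1: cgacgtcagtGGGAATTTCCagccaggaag
REL: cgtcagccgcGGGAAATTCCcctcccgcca
NFKB2, middle start: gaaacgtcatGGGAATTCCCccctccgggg
NFKB2, last start: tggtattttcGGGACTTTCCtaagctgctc

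The arrays were checked before any comparison. SHP2 sh2 replicate 2 and SHP2 sh1 replicate 2 correlated less with the remaining arrays (0.886 to 0.936 and 0.930 to 0.965 over all probes) than those 5 did among themselves (0.981 to 0.992). They are called the outlying arrays below, and they correlated with each other at 0.972, more than either did with the other 5. Genes were divided by their control level into 4 bands of nearly equal number. Those of the brightest band had a median difference from the control mean of -1.01 and -0.61 on these 2 arrays, and of -0.18 to 0.00 on the other SHP2 hairpin arrays. In the band next to the dimmest, the medians were 0.63 and 0.36 on the outlying arrays and -0.04 to 0.13 on the others. Of the 9 measured members, 7 lay in the brightest band, RELB lay in the band below it, and TNF lay in the band next to the dimmest. PTPN11 was at a log2 level of 7.90 and 6.93 with SHP2 sh1 and 7.96, 7.20 and 7.89 with SHP2 sh2, against 9.53 and 9.18 with Ctrl shRNA. Of the mesenchymal markers, VIM lay between 11.62 and 12.18, FN1 between 12.15 and 12.87, CD44 between 10.69 and 12.15, ZEB1 between 7.01 and 8.61 and CDH2 between 6.77 and 9.28 over the 7 arrays. The median difference of these 5 genes from the control mean was 0.09 and -0.13 with SHP2 sh1 and -0.07, -1.09 and 0.15 with SHP2 sh2. Of the markers of blood cells, PTPRC lay between 3.90 and 4.75, LYZ between 4.10 and 4.33 and CD3E between 5.14 and 6.01. CD14 lay between 5.81 and 6.63, HBB between 5.95 and 6.88 and CSF1R between 6.17 and 6.81. The epithelial markers went in different directions on the outlying arrays. CDH1 was at 5.16 and 7.42 with SHP2 sh1 and 6.20, 7.12 and 5.61 with SHP2 sh2, against 5.32 and 5.19 with Ctrl shRNA, and was highest on the outlying arrays. KRT18 was lowest on them, at 9.41 and 8.70 with SHP2 sh1 and 9.10, 8.65 and 9.87 with SHP2 sh2, against 9.57 and 9.38 with Ctrl shRNA. KRT8 had its lowest value, 9.73, on SHP2 sh2 replicate 2. CLDN4 was at 6.10 and 6.56 with SHP2 sh1 and 6.14, 6.48 and 6.70 with SHP2 sh2, against 5.90 and 6.06 with Ctrl shRNA. It lay above both controls on all 5 SHP2 hairpin arrays, as did 8.13% of all genes. EPCAM was at 3.79 and 3.58 with SHP2 sh1 and 3.74, 4.10 and 3.33 with SHP2 sh2, against 3.62 and 2.89 with Ctrl shRNA. Its highest value was on SHP2 sh2 replicate 2. The part of these marker differences in the results below was not tested.

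None of the 9 members passed the test in any comparison. With limma, 0 of 18417 genes (0%) reached an adjusted p under 0.05 for SHP2 sh1, SHP2 sh2 or both hairpins averaged, each against Ctrl shRNA, or for SHP2 sh2 against SHP2 sh1. At an unadjusted p under 0.05, TNF and TNFAIP2 were higher with SHP2 sh1 (0.635% of all genes were), TNF alone with SHP2 sh2 (0.532%), and TNF and TNFAIP2 in the mean of both hairpins (0.69%). No member was lower at that level, against 0.456%, 1.81% and 1.25% of all genes. In either direction the shares of all genes were 1.09%, 2.35% and 1.94%. TNF and TNFAIP2 were also the members that lay above both controls on all 5 SHP2 hairpin arrays, as did 8.13% of all genes, and no member lay below both controls on all 5, as did 7.17%. With array weights, 122 genes (0.662%) and 0 members passed for SHP2 sh2 against Ctrl shRNA. The 3 comparisons with Ctrl shRNA share the same 2 control arrays.

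**Figure D1:**
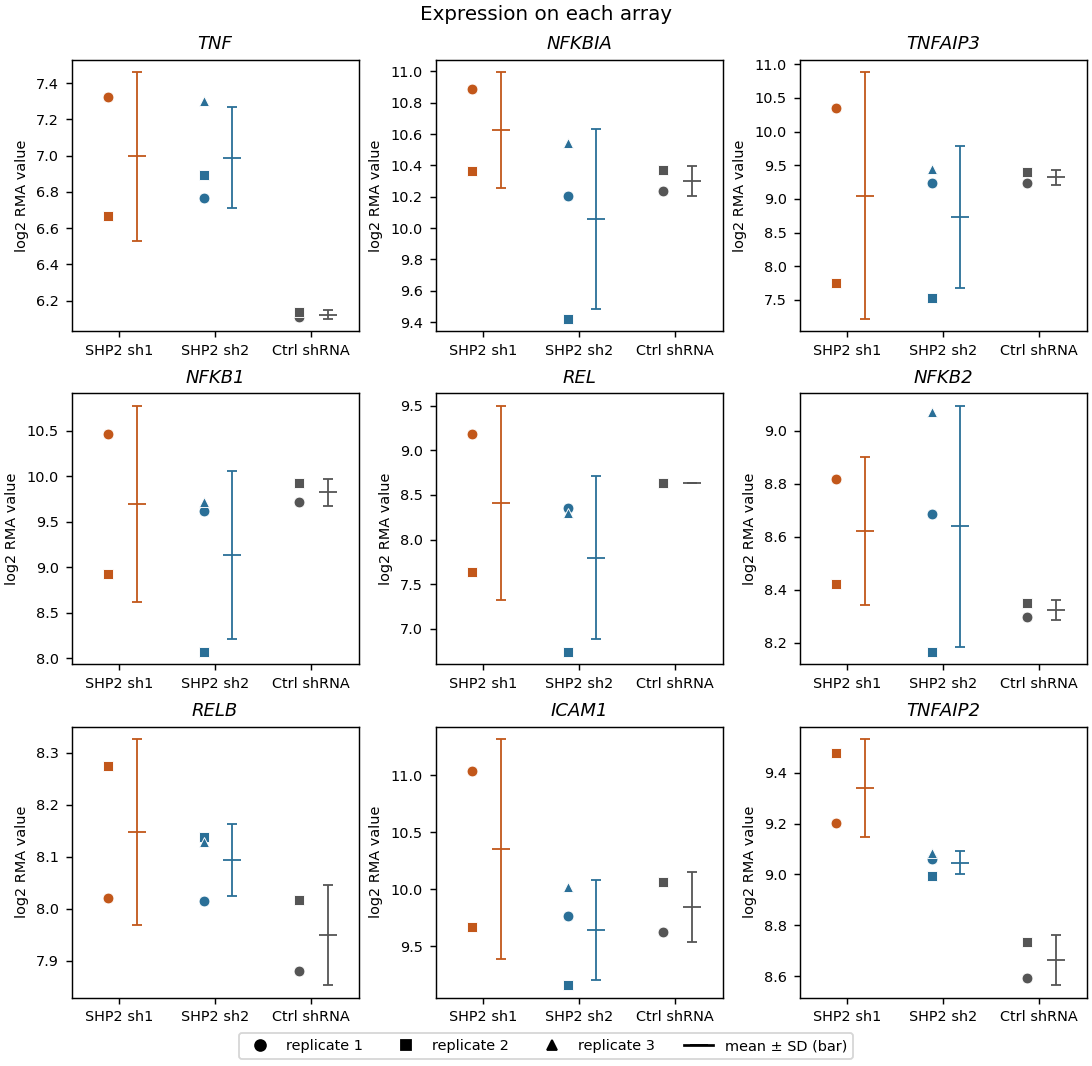
Log2 expression of the 9 measured members on each array, by group (SHP2 sh1, SHP2 sh2 and Ctrl shRNA from left to right), with bars for the mean ± SD of each group. Squares mark replicate 2, which in both SHP2 hairpin groups is the outlying array. TNF and TNFAIP2 lay above both controls on all 5 SHP2 hairpin arrays, whereas TNFAIP3, NFKB1 and REL were lowest on the outlying arrays.

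TNF encodes the cytokine at the head of the pathway. Its log2 level was 7.32 and 6.67 with SHP2 sh1 and 6.77, 6.89 and 7.30 with SHP2 sh2, against 6.11 and 6.14 with Ctrl shRNA. All 5 SHP2 hairpin arrays lay above both controls by more than the distance between the controls, and the arrays of the 2 hairpins overlapped. SHP2 sh1 arrays averaged 7.0 ± 0.46 (SD, n = 2) and SHP2 sh2 arrays 6.99 ± 0.28 (SD, n = 3), against 6.12 ± 0.02 (SD, n = 2) on Ctrl shRNA arrays. The log2 fold change was 0.87 for SHP2 sh1 (95% interval 0.16 to 1.59) and 0.86 for SHP2 sh2 (0.21 to 1.52). For the mean of both hairpins it was 0.87 (standard error 0.25, interval 0.27 to 1.47), a 1.83-fold difference with an adjusted p of 0.758 from limma. By unadjusted p, TNF was gene 65 of 18417 in that comparison. On the outlying arrays TNF differed from the control mean by 0.54 and 0.77, where genes of its brightness had medians of 0.36 and 0.63. On the other SHP2 hairpin arrays it differed by 1.20, 0.64 and 1.18, where those medians were -0.04, 0.13 and 0.06. Without the outlying arrays the mean log2 fold change was 1.06. TNF was represented by 3 probes on the array, which held the same values. In bulk RNA a larger share of TNF-expressing cells and more TNF RNA per cell cannot be told apart. The 6 measured markers of blood cells (PTPRC, CD14, LYZ, CSF1R, CD3E and HBB) had a summed linear level of 297 and 371 with SHP2 sh1 and 321 to 431 with SHP2 sh2, against 308 and 268 with Ctrl shRNA. The highest sums, 371 and 431, were those of the outlying arrays, and the other SHP2 hairpin arrays had 297, 332 and 321. All 6 had a mean log2 fold change above 0 (0.14 to 0.31), none passed the test, and their part in the TNF difference was not tested. On Ctrl shRNA arrays their mean log2 levels were 6.37 (CSF1R), 6.04 (CD14), 6.02 (HBB), 5.28 (CD3E), 4.10 (PTPRC) and 4.10 (LYZ). TNF, at 6.12 there, was thus near the brighter of these markers of other cells. How much of its signal was array background was not tested.

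TNFAIP2, a TNF-induced gene whose product acts in membrane protrusion, was the other member with this separation. It was at 9.20 and 9.48 with SHP2 sh1 and 9.06, 8.99 and 9.08 with SHP2 sh2, against 8.59 and 8.73 with Ctrl shRNA. No SHP2 hairpin array overlapped the controls, and the 3 SHP2 sh2 arrays also lay below both SHP2 sh1 arrays, an order that 3.08% of all genes showed. The log2 fold change was 0.68 for SHP2 sh1 (interval 0.19 to 1.16), 0.38 for SHP2 sh2 (-0.06 to 0.82) and 0.53 for the mean of both (standard error 0.17, interval 0.12 to 0.94, adjusted p = 0.758 from limma). The difference between hairpins was -0.29 (SHP2 sh2 minus SHP2 sh1, interval -0.73 to 0.15, adjusted p = 1 from limma). On the outlying arrays TNFAIP2 differed from the control mean by 0.81 and 0.33, where genes of its brightness had medians of -0.61 and -1.01. Without them the mean log2 fold change was 0.47.

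The inhibitors showed no such separation. NFKBIA encodes IkBa, which binds NF-kB dimers in the cytoplasm and is resynthesised on their activation. It was at 10.89 and 10.36 with SHP2 sh1 and 10.21, 9.42 and 10.54 with SHP2 sh2, against 10.23 and 10.37 with Ctrl shRNA, so that both hairpin groups overlapped the controls. Its log2 fold change was 0.04 in the mean of both hairpins (standard error 0.33, interval -0.75 to 0.83, adjusted p = 0.953 from limma). TNFAIP3 encodes A20, the ubiquitin-editing enzyme that shuts off signalling from the TNF receptor. It was at 10.34 and 7.76 with SHP2 sh1 and 9.24, 7.52 and 9.44 with SHP2 sh2, against 9.24 and 9.40 with Ctrl shRNA. Its lowest values, 7.76 and 7.52, were those of the outlying arrays, while SHP2 sh1 replicate 1 was the highest of all arrays. The mean log2 fold change was -0.43 with an interval of -2.31 to 1.46 (adjusted p = 0.795 from limma), and it was 0.52 without the outlying arrays (adjusted p = 0.503), so its direction rests on them.

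Among the subunits, NFKB1 and REL resembled TNFAIP3. NFKB1 encodes p105, which is processed to p50, and REL encodes c-Rel, a subunit with a transactivation domain. NFKB1 was at 10.46 and 8.93 with SHP2 sh1 and 9.62, 8.07 and 9.72 with SHP2 sh2, against 9.72 and 9.93 with Ctrl shRNA. REL was at 9.18 and 7.64 with SHP2 sh1 and 8.35, 6.74 and 8.29 with SHP2 sh2, against 8.63 on both controls. For NFKB1, SHP2 sh2 replicate 3 equalled the lower control. Both genes were lowest on the outlying arrays and highest on SHP2 sh1 replicate 1, and REL lay below the controls on all 3 SHP2 sh2 arrays, as did 16.1% of all genes. The mean log2 fold change was -0.41 for NFKB1 (interval -1.79 to 0.97, adjusted p = 0.765 from limma) and -0.53 for REL (-1.90 to 0.85, adjusted p = 0.758). Without the outlying arrays these values were 0.24 and 0.12. For both genes the hairpins then differed in sign. The log2 fold change on the lone SHP2 sh1 array was 0.64 for NFKB1 and 0.55 for REL. With SHP2 sh2 it was -0.16 for NFKB1 and -0.31 for REL.

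The subunits of the noncanonical branch were spread less. NFKB2 encodes p100, the precursor of p52, and RELB encodes the usual partner of p52. NFKB2 was at 8.82 and 8.42 with SHP2 sh1 and 8.68, 8.17 and 9.07 with SHP2 sh2, against 8.30 and 8.35 with Ctrl shRNA. Only SHP2 sh2 replicate 2, an outlying array, was not above both controls. RELB was at 8.02 and 8.27 with SHP2 sh1 and 8.01, 8.14 and 8.13 with SHP2 sh2, against 7.88 and 8.02 with Ctrl shRNA, and SHP2 sh2 replicate 1 lay within the range of the controls. The mean log2 fold change was 0.31 for NFKB2 (interval -0.35 to 0.97) and 0.17 for RELB (-0.24 to 0.58), each with an adjusted p of 0.758 from limma. Without the outlying arrays it was 0.52 for NFKB2 and 0.10 for RELB.

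ICAM1 encodes an adhesion molecule that binds leukocyte integrins and is a classical target of NF-kB. It was at 11.03 and 9.67 with SHP2 sh1 and 9.76, 9.16 and 10.01 with SHP2 sh2, against 9.62 and 10.06 with Ctrl shRNA. SHP2 sh1 replicate 1 alone was above both controls, SHP2 sh2 replicate 2 alone was below both, and the rest lay between them. The log2 fold change was 0.51 for SHP2 sh1 (interval -0.68 to 1.70), -0.20 for SHP2 sh2 (-1.28 to 0.89) and 0.16 for the mean of both (-0.84 to 1.16, adjusted p = 0.849 from limma). It was 0.62 for the mean of both without the outlying arrays.

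**Figure D2:**
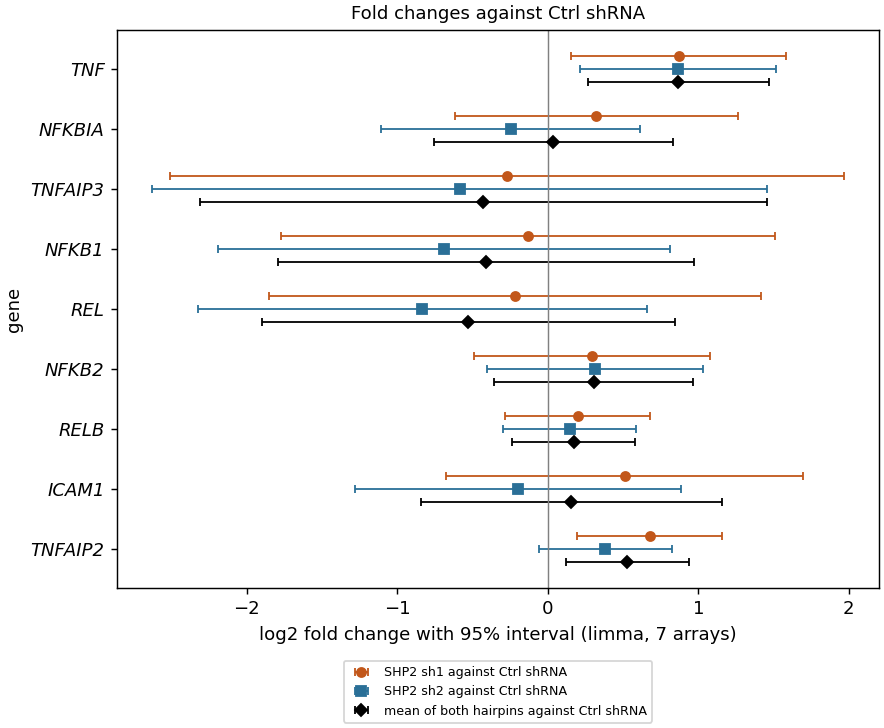
Log2 fold change of each member with its 95% interval, for SHP2 sh1, SHP2 sh2 and both hairpins averaged, each against Ctrl shRNA, from the fit over all 7 arrays. The interval of the mean lies above 0 for TNF (0.27 to 1.47) and TNFAIP2 (0.12 to 0.94) and spans 0 for the other 7 members.

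Across the members, the arrays of a hairpin group lay far apart. On SHP2 sh1 replicate 1 all 9 members were above both controls, as were 31.2% of all genes, and 6 of the 9 had their highest value there (TNF, TNFAIP3, NFKBIA, NFKB1, REL and ICAM1), as had 15.5% of all genes. The median of the members' differences from the control mean was 0.58 on that array and 0.06 on SHP2 sh1 replicate 2. On the SHP2 sh2 arrays it was -0.08, -0.68 and 0.18, and the controls stood at -0.07 and 0.07. Over the members, the median log2 fold change (both hairpins averaged) was 0.16, with 0.075 over all genes. The outlying arrays held the lowest values of TNFAIP3, NFKB1 and REL, a pattern of 28.2% of all genes.

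**Figure D3:**
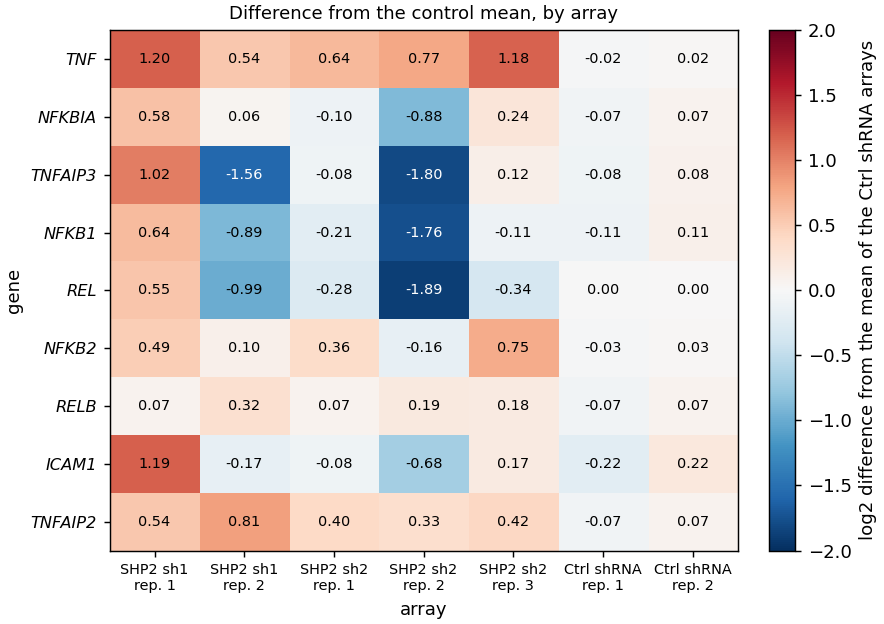
Difference of each member's log2 expression from the mean of the Ctrl shRNA arrays, for every array. TNFAIP3, NFKB1, REL and ICAM1 differ in sign between SHP2 sh1 replicate 1 and both outlying arrays, whereas TNF, TNFAIP2 and RELB are above 0 on all 5 SHP2 hairpin arrays. For RELB, SHP2 sh2 replicate 1 lies within the range of the controls.

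Leaving out the outlying arrays, a choice made after seeing the data, put the mean of both hairpins above Ctrl shRNA for all 9 members, as for 50.6% of all genes. With all 7 arrays it was above for 6 of 9, as for 58% of all genes. TNF, TNFAIP2 and NFKB2 then lay above both controls on the 3 remaining SHP2 hairpin arrays (10.1% of all genes did), and no member lay below both (8.81% did). SHP2 sh1 replicate 1 exceeded both remaining SHP2 sh2 arrays for 7 of 9 members, as for 28.5% of all genes. TNF, TNFAIP2, TNFAIP3, NFKB2 and ICAM1 were higher at an unadjusted p under 0.05 (4.25% of all genes were), and with limma 0 members and 0 of 18417 genes reached an adjusted p under 0.05. The median log2 fold change of the members was 0.47, with 0.00 over all genes. SHP2 sh1 was then a single array, on which the median was 0.58, and with the 2 SHP2 sh2 arrays it was 0.07. That lone array has no spread of its own. The higher mean of TNFAIP3 and ICAM1 came mostly from it, with log2 fold changes of 1.02 and 1.19. With SHP2 sh2 these were 0.020 and 0.046. TNF, TNFAIP2 and NFKB2 were above 0 with each hairpin, at 1.20, 0.54 and 0.49 with SHP2 sh1. With SHP2 sh2 these members were at 0.91, 0.41 and 0.55.

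The hairpins were compared directly. No member passed for SHP2 sh2 against SHP2 sh1 (adjusted p = 1 from limma for each), and at an unadjusted p under 0.05 the count was 0 members and 116 genes (0.63%), of which 11 were higher with SHP2 sh2 (0.0597%) and 105 lower (0.57%). No member had all 3 SHP2 sh2 arrays above both SHP2 sh1 arrays, as 2.21% of all genes had. The difference was -0.01 for TNF (interval -0.66 to 0.64) and 0.02 for NFKB2 (-0.70 to 0.73), intervals that still allow differences as large as most of the fold changes above. It was -0.71 for ICAM1 (-1.79 to 0.37), -0.61 for REL (-2.10 to 0.88) and -0.57 for NFKBIA (-1.43 to 0.29). Without the outlying arrays, the 2 SHP2 sh2 arrays set against the lone SHP2 sh1 array gave -1.15 for ICAM1, -1.0 for TNFAIP3, -0.86 for REL and -0.79 for NFKB1 (adjusted p = 0.247 from limma for each).

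The other genes of the pathway were read in 3 lists. In the cascade from the TNF receptors to IKK, 17 of 20 genes were measured, 0 passed the test, and 8 were above and 9 below 0 when both hairpins were averaged. The median was -0.01. Over all genes in that comparison 58% were above 0, and the median was 0.075. TNFRSF1B, the TNF receptor found mainly on immune and endothelial cells, was at 8.21 and 7.66 with SHP2 sh1 and 7.68, 7.67 and 8.09 with SHP2 sh2, against 7.29 and 7.43 with Ctrl shRNA. It lay above both controls on all 5 SHP2 hairpin arrays, with a mean log2 fold change of 0.51 (standard error 0.23, adjusted p = 0.758 from limma). RNF31, the catalytic subunit of the linear ubiquitin ligase, had a mean log2 fold change of 0.34 (adjusted p = 0.758), which was 0.20 with the average over its probes and 0.062 with its brightest probe. IKBKB, the kinase IKK-beta, named here after its values were seen, was the gene of the list below both controls on all 5 arrays, with a mean log2 fold change of -0.18 (adjusted p = 0.758). With 1 gene of 17 above and 1 of 17 below on all 5 arrays, the list was near the shares of all genes (8.13% and 7.17%).

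Among other regulators and inhibitors of NF-kB, all 17 genes were measured and 0 passed. For the mean of both hairpins 6 were above and 11 below 0, with a median of -0.08. Of all genes 58% were above 0, with a median of 0.075. CFLAR, which encodes the caspase-8 inhibitor c-FLIP, was at 7.02 and 6.66 with SHP2 sh1 and 5.79, 5.32 and 5.65 with SHP2 sh2, against 6.86 and 6.93 with Ctrl shRNA. The SHP2 sh2 arrays lay below all others, while the SHP2 sh1 arrays lay on either side of the controls. Its log2 fold change with SHP2 sh2 was -1.30 (standard error 0.23, interval -1.84 to -0.76), the smallest unadjusted p of the 18417 genes in that comparison, with an adjusted p of 0.667 from limma, and its difference between hairpins was -1.25 (adjusted p = 1). These values belong to the most variable of its probes. For the mean of both hairpins the log2 fold change was -0.68 with that probe (unadjusted p = 0.0146 from limma), -0.64 with the average over probes (0.0743) and -0.61 with the brightest probe (0.201). OTULIN, which cleaves linear ubiquitin chains, had a mean log2 fold change of -0.38 (adjusted p = 0.758), which was -0.14 without the outlying arrays and ran from -0.55 without Ctrl shRNA replicate 1 to -0.20 without Ctrl shRNA replicate 2 when single arrays were left out.

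Among other TNF-induced targets, 24 of 25 genes were measured and 0 passed. For the mean of both hairpins 13 were above and 11 below 0, with a median of 0.08. Of all genes 58% were above 0, with a median of 0.075. VCAM1, an adhesion molecule for leukocytes, was at 7.08 and 7.46 with SHP2 sh1 and 6.90, 6.90 and 7.25 with SHP2 sh2, against 6.09 and 5.95 with Ctrl shRNA. The chemokine CCL2 was at 8.33 and 7.18 with SHP2 sh1 and 8.59, 8.17 and 6.64 with SHP2 sh2, against 5.83 and 6.06 with Ctrl shRNA. These 2 genes and CD40, a member of the TNF receptor family named here after its values were seen, were those of the list with no overlap between SHP2 hairpin arrays and controls, 3 of 24, where 8.13% of all genes lay above both controls on all 5 arrays. The mean log2 fold change was 1.12 for VCAM1 (standard error 0.20, interval 0.64 to 1.60), which had the third smallest unadjusted p of all genes, 1.83 for CCL2 (standard error 0.57, interval 0.47 to 3.19) and 0.38 for CD40 (standard error 0.18), each with an adjusted p of 0.758 from limma. The control levels of these 3 genes were below the median of all genes. The 2 bands in that range had medians of 0.26 and 0.36 on the outlying SHP2 sh1 array. On the outlying SHP2 sh2 array they were 0.53 and 0.63. On these 2 arrays CD40 differed from the control mean by 0.47 and 0.56, VCAM1 by 1.44 and 0.88 and CCL2 by 1.23 and 2.23. Over the whole list the arrays of each hairpin lay far apart, with a median difference from the control mean of 0.98 and -0.59 with SHP2 sh1 and -0.02, -0.94 and 0.30 with SHP2 sh2. Without the outlying arrays 22 of its 24 genes were above 0 in the mean of both hairpins, as were 50.6% of all genes, and the median was 0.52. The lone SHP2 sh1 array then had a median of 0.98, where all genes had -0.02. With SHP2 sh2 the median was 0.14 with 16 of 24 genes above 0. Over all genes the SHP2 sh2 median was 0.03, with 10501 of 18417 above 0.

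**Figure D4:**
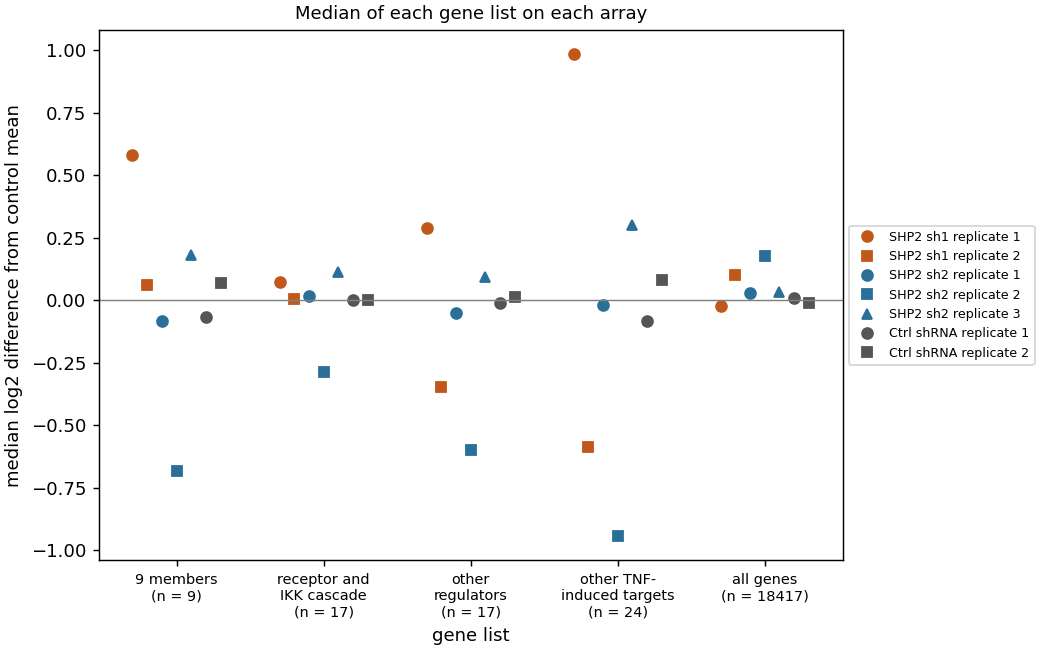
Median difference from the Ctrl shRNA mean on the log2 scale for the 9 members, the 3 lists of other pathway genes and all genes, on each array. The TNF-induced targets had the widest range over arrays, from 0.98 on SHP2 sh1 replicate 1 to -0.94 on SHP2 sh2 replicate 2.

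Over the 7 arrays, the genes whose log2 level was most like that of TNF were SLC2A6 (Pearson r = 0.982), KLHL9 (0.971), GRAMD1A (0.964), TNFRSF1B (0.961) and GMFG (0.957). The arrays share their 2 controls and the outlying arrays, and over the 5 arrays without the outlying ones r was 0.975 to 0.996 for these genes. SLC2A6, a glucose transporter, was at 8.06 and 7.87 with SHP2 sh1 and 7.85, 7.95 and 8.11 with SHP2 sh2, against 7.46 and 7.50 with Ctrl shRNA. Of the other members, NFKB2 was nearest to TNF by this measure (r = 0.716), followed by TNFAIP2 (0.638). The 5 genes were picked from all 18417 for their likeness, so no test is given.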

How the data were processed

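RNA of SUM159 cells was measured on 7 Human Gene 1.0 ST arrays. The authors computed robust multi-array averages with oligo, whose version is not given in the sources used here. The deposited log2 values run from 1.94 to 13.9 and were not transformed further. The labels name a column-based RNA kit and the methods TRIzol. Symbols came from the platform annotation, and for genes with several probes the most variable one by interquartile range was taken. No dim probe was left out.

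The 3 group means were fitted over all 7 arrays with limma 3.58.1 in R 4.3.3 (lmFit, eBayes, two-sided, Benjamini-Hochberg adjustment over 18417 genes, threshold 0.05). The fit was run on simulated data with independent noise on each array. These held no outlying arrays and no shift by brightness, so they do not show how the fit handles either. The members and lists were chosen with earlier results of these data known. Named genes were the members, PTPN11, the 2 genes of smallest p in each list for the mean of both hairpins, and the 5 genes most correlated with TNF. Alternatives were the brightest probe or the average over probes, leaving out the dimmest 25% of genes, median centring, cyclic loess, an intensity trend, array weights, only the arrays compared, a replicate block, and each array left out. Leaving out both outlying arrays was added after seeing the data. With 2 or 3 arrays a group, their number limits the precision.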

Additional observations from a re-analysis of the deposited data

How the results depend on the processing

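No member passed the limma test under any alternative run. The mean log2 fold change of TNF stayed between 0.70 and 1.06 and that of TNFAIP2 between 0.46 and 0.73. With array weights, 122 genes (0.662%) passed for SHP2 sh2 against Ctrl shRNA where 0 did otherwise, among them 0 members, and the cause was not tested. The weights of SHP2 sh2 replicates 1, 2 and 3 were 6.73, 0.12 and 1.39, so that replicate 1 dominated the weighted mean. Each Ctrl shRNA array had a weight of 3.66. NFKB2 and RELB also kept their direction for each hairpin and for the mean under every alternative run. Each of the other 5 members turned in at least 1 comparison under some alternative. Under cyclic loess it turned for NFKB1 with SHP2 sh1 (0.044) and, with SHP2 sh2, for NFKBIA (0.031) and ICAM1 (0.080). For NFKBIA the mean of both hairpins turned under median centring (-0.014) and with the replicate number as a block (-0.083). Without both outlying arrays the direction turned with SHP2 sh1 for TNFAIP3 (1.02), NFKB1 (0.64) and REL (0.55), with SHP2 sh2 for TNFAIP3 (0.020), NFKBIA (0.072) and ICAM1 (0.046), and in the mean of both for TNFAIP3 (0.52), NFKB1 (0.24) and REL (0.12). With single arrays left out, the values with SHP2 sh1 ran from -1.56 to 1.02 for TNFAIP3, -0.89 to 0.64 for NFKB1, -0.99 to 0.55 for REL and -0.17 to 1.19 for ICAM1. With SHP2 sh2 they ran from -0.94 to 0.020 for TNFAIP3, -0.49 to 0.072 for NFKBIA and -0.41 to 0.046 for ICAM1. In the mean of both they ran from -1.08 to 0.22 for TNFAIP3, -0.092 to 0.20 for NFKBIA and -0.18 to 0.50 for ICAM1. SHP2 sh1 then has a lone array in some fits, assumed to vary like the other groups. Arrays with the same replicate number deviated together between the hairpins (r = 0.62 and 0.85) but not with the controls (-0.06 to 0.02). In a group of 2 arrays the deviations mirror each other, so the values for replicates 1 and 2 are not separate checks. Both outlying arrays are replicate 2. Whether the numbers mark a batch shared by the hairpins was not tested. With the replicate number as a block, 0 genes passed in each comparison.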
